A study of Homo sapiens with 12 samples.

Results

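Stretches of the genome that carried H3K27ac mainly in dexamethasone-treated myeloma cells, in either genotype, are described here. Chromosomes 1 to 22 and X were cut into bins of 500 bp, and a bin counted as present in a library when peaks covered at least 250 bp of it. A gained bin was one held by at least 4 more of the 6 dexamethasone (Dex) libraries than of the 6 DMSO libraries. The rule found 983 bins among the 292998 bins present in at least 1 library (0.335%), which is 0.804% of the 122248 bins present in at least 4 libraries. Because the deposited peaks themselves chose the bins, every difference between Dex and DMSO at them is given as a description, without a test.

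The cells were RPMI 8226, an established human multiple myeloma line of malignant plasma cells. The 4 groups were CEBPB KO cells with Dex, scramble control (SCR) cells with Dex, CEBPB KO cells with DMSO and SCR cells with DMSO, with 3 libraries in each. Dex cells had received 10 µM of the drug for 2 h, DMSO was the vehicle, and each CUT&RUN assay used 100000 cells. The labels do not say whether the CEBPB KO cells were a clone or a pool, or whether replicate libraries were made from separate cultures, and the p-values below therefore measure the spread between libraries only. Coverage of H3K27ac at CEBPB does not report on the knockout itself, and a change in the share of cells with the mark cannot be told apart from a change in the amount of it per cell.

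H3K27ac is acetylation of lysine 27 of histone H3, a mark of active promoters and enhancers, and CUT&RUN maps it by releasing antibody-bound chromatin with a tethered nuclease. Dexamethasone is a synthetic glucocorticoid. It binds the glucocorticoid receptor, which then enters the nucleus, binds DNA at response elements that often lie far from promoters, and recruits coactivators that acetylate histones, while it represses many inflammatory genes through NF-κB and AP-1. C/EBPβ, the product of CEBPB, is a bZIP transcription factor that binds together with the receptor in several cell types. Glucocorticoids are used against myeloma because they kill plasma cells.

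The libraries held 41164 to 56421 peaks, and no file gives their read depth. Covered length was 54.4 ± 3.96 Mb in KO Dex, 52.7 ± 6.19 Mb in SCR Dex, 58.2 ± 5.48 Mb in KO DMSO and 58.9 ± 6.81 Mb in SCR DMSO libraries (SD, n = 3 each), so the Dex libraries gave less length in which a gained bin could lie. Of 8 plasma cell marker genes, 7 carried a peak within 1 kb of the gene in all 12 libraries and SLAMF7 in 5. All 5 were KO libraries, with 1095 to 2674 bp, so SLAMF7 adds only to the KO sums below. Peaks in all 12 libraries were also found at 3 of 10 T cell, 6 of 10 myeloid, 4 of 10 mature B cell and 7 of 10 stromal or epithelial marker genes, while CD3G, LEF1, LYZ, MS4A1, CD22, COL1A2 and COL3A1 had none in any library. Summed over the 8 plasma cell markers, peaks covered 37001 to 39370 bp in KO Dex, 31472 to 34388 bp in SCR Dex, 34797 to 40691 bp in KO DMSO and 30141 to 33473 bp in SCR DMSO libraries. The KO ranges lay above the SCR ranges within each treatment, and the part of this in the results below was not tested. Mature B cell markers went the other way under Dex, with 21588 to 25094 bp in KO and 26300 to 26930 bp in SCR libraries. Under DMSO their ranges overlapped, and those of the T cell, myeloid and stromal or epithelial markers overlapped in both treatments.

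Promoter windows that lay in gained bins were counted, without a like count for other bins. Of the 34961 RefSeq promoter windows on these chromosomes (250 bases before to 50 after a start, GRCh38.p14, the assembly that hg38 names), 17 shared at least 150 bases with a gained bin. The sequences of 5 of them are given. CXCR4 and FKBP5 are known glucocorticoid target genes. RGS1, a regulator of G protein signalling, had a further gained run 44773 bp from the gene. BTN3A3 and APBA2 had the only promoters of the 17 that held a C/EBP word. The 5 windows are chr2:136118100-136118399 (minus strand, CXCR4), chr6:35688866-35689165 (minus strand, FKBP5), chr1:192575523-192575822 (plus strand, RGS1), chr6:26440254-26440553 (plus strand, BTN3A3) and chr15:28921387-28921686 (plus strand, APBA2). Capitals mark matches on either strand to any of the words searched, described after the sequences.
CXCR4: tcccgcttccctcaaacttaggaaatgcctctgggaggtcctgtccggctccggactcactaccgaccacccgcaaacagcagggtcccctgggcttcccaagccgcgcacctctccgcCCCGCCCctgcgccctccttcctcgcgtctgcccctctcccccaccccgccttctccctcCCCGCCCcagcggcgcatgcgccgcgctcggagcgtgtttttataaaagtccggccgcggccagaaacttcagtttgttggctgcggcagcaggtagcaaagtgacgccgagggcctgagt
FKBP5: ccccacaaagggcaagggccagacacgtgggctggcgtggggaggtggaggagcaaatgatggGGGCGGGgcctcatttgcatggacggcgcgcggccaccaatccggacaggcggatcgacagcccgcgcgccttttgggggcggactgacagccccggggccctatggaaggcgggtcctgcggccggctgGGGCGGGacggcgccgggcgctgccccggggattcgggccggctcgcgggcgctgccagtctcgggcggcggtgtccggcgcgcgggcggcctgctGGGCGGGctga
RGS1: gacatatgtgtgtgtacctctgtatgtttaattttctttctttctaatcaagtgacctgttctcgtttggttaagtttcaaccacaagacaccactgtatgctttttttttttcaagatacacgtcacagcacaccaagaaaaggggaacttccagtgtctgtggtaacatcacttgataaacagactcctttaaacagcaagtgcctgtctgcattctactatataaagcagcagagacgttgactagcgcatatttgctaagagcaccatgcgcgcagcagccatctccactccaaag
BTN3A3: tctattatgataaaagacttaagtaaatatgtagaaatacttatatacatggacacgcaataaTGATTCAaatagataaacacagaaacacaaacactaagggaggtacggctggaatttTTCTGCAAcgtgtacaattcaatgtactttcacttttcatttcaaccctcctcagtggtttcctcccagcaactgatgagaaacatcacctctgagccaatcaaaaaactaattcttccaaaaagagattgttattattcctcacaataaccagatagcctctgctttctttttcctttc
APBA2: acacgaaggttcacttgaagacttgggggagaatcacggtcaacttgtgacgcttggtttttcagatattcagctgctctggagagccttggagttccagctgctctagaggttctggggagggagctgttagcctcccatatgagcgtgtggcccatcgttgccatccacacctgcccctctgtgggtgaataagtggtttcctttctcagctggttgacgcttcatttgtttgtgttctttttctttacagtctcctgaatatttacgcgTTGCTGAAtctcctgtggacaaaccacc

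The words searched were ACANNNTGT, the core of the glucocorticoid response element, TTGCNNAA for C/EBP factors, TTGCGCAA, the palindromic C/EBP word that is a case of TTGCNNAA, TGANTCA for AP-1 and GGGCGGG for SP and KLF factors. The glucocorticoid response core was in 0 of the 17 promoters, against 5.36% of all promoter windows. TTGCNNAA was in 2 (11.8%, against 10.4%), TTGCGCAA in 0 (against 0.152%), TGANTCA in 1, BTN3A3 (5.88%, against 7.68%), and GGGCGGG in 3 (17.6%, against 33.1%). The 3 with GGGCGGG were the promoters of CXCR4, FKBP5 and AAMDC. Median GC content of the 17 was 52.7%, and that of all windows was 58.7%. The RGS1 promoter held none of the 5 words, which says only that these letters are not in its window.

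Gained bins were fewer than lost ones, but more of them separated the treatments completely. The mirror rule, at least 4 more DMSO than Dex libraries, gave 1657 bins (0.566%), more than the 983 gained bins. At a difference of 4 libraries, 733 bins had more Dex libraries and 1386 had more DMSO libraries, and at 5 the counts were 177 and 256. At the full difference of 6, where the bin was in every Dex and in no DMSO library, 73 bins were gained and 15 were lost, a ratio of 4.87. Trimming every library to 48.0 Mb of covered length, by keeping its peaks of highest −log10 q, gave 817 gained and 676 lost bins at a difference of 4, 207 and 95 at 5, and 82 and 11 at 6. Counting only peaks with −log10 q of at least 2 gave 587 and 512, 128 and 77, and 77 and 6. The order at differences 4 and 5 therefore turned round with both of these settings, while the full separation held more gained than lost bins in all 3.

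**Figure D1:**
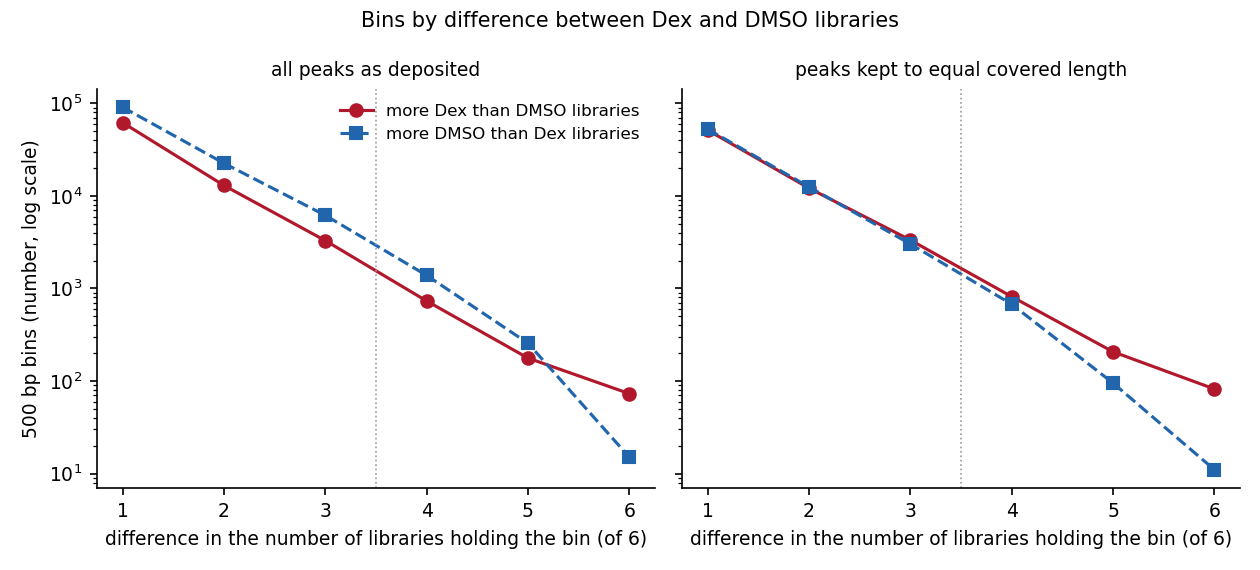
Number of 500 bp bins on a log axis against the difference in the number of libraries that held them, with circles for bins in more Dex libraries and squares for bins in more DMSO libraries. The dotted line marks the rule's limit, and at a difference of 6 the circles stand at 73 above the squares at 15 on the left, and at 82 above 11 on the right where covered length was made equal.

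In the 3295 bins just outside the rule, at a difference of 3, the mean was 4.07 Dex and 1.07 DMSO libraries. In the 733 bins just inside it, the mean was 4.84 Dex and 0.839 DMSO libraries. Of the 983 gained bins, 359 were in all 6 Dex libraries, 303 in 5 and 321 in 4. In DMSO, 488 gained bins were in no library, 292 in 1 and 203 in 2. The gained set therefore holds both bins that no vehicle library covered over at least 250 bp and bins that 1 or 2 vehicle libraries also held. A bin in no DMSO library could still hold a shorter stretch of a peak. The bin of full separation inside ANKRD55 had 290 to 367 bp in Dex libraries and 214 to 242 bp in DMSO libraries.

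The number of these bins that a library held overlapped between the genotypes within each treatment. The share of the 983 bins present was 83.5%, 88.0% and 78.9% in the 3 KO Dex libraries and 88.4%, 81.2% and 83.8% in the 3 SCR Dex libraries. It was 13.5%, 7.83% and 13.9% in the KO DMSO libraries and 22.6%, 6.21% and 6.92% in the SCR DMSO libraries. SCR DMSO library 1, which had the greatest covered length of the series, stood highest among the DMSO libraries. These shares count the same bins that the rule chose, so they are a description and no test of the genotypes is drawn from them.

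Over both treatments the share was 47.6% in KO and 48.2% in SCR libraries, a difference of -0.560 percentage points. With Dex alone KO stood at 83.5% and SCR at 84.5% (difference -0.983 points), and with DMSO alone at 11.8% and 11.9% (-0.136 points). The rule bounds the size of any such difference, since a gained bin lacks at most 2 Dex libraries and is in at most 2 DMSO libraries, and the sign of the small differences turned under 6 of the other settings tried and without some single libraries.

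**Figure D2:**
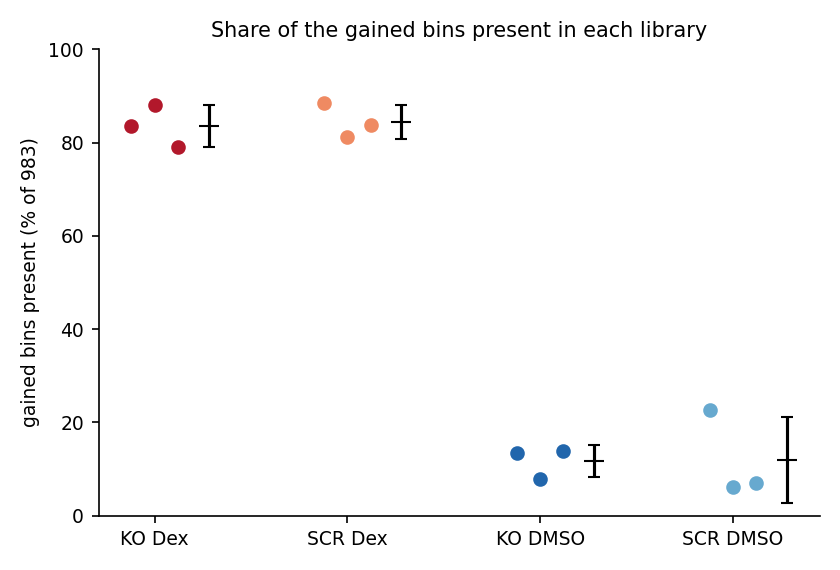
Percent of the 983 gained bins present in each library, 1 point per library, with the mean and SD of the 3 libraries at its right. KO Dex and SCR Dex libraries lie between 78.9% and 88.4%, and KO DMSO and SCR DMSO libraries between 6.21% and 22.6%, with overlap between the genotypes within each treatment.

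Bin by bin, 620 of the 983 (63.1%) gained at least 2 libraries in both genotypes. The gain was equal in 443 bins, larger in KO cells in 264 and larger in SCR cells in 276. The most uneven patterns the rule admits, a gain of 3 libraries in 1 genotype and 1 in the other, occurred 175 times with KO ahead and 188 times with SCR ahead. In DMSO, 182 gained bins were in some KO and no SCR library and 189 in some SCR and no KO library. No pattern leaned to 1 genotype by more than a few percent of the bins.

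The drug-gained bins lay away from gene ends, and so did the lost bins. Gene ends were used in place of start sites because the gene table carries no strand. Of the gained bins, 8.75% were within 1 kb of an end of a protein-coding gene, compared with 23.1% of all bins in at least 4 libraries and 39.8% of the 50041 bins in all 12 libraries. That share was 13.1% for bins in at least 1 library and 10.7% for bins at a difference of 3. Inside genes lay 51.2% of gained bins, 17.8% were outside genes within 25 kb, and 22.3% were over 25 kb from any protein-coding gene. The share inside genes was 46.5% for bins in at least 4 libraries and 55.6% for bins in at least 1. The 73 bins with full separation went further in that direction, with 5.48% at gene ends and 34.2% over 25 kb away. Median distance to a gene end was 31.6 kb for those 73, 21.3 kb for all gained bins, 12.0 kb for bins in at least 4 libraries and 3.36 kb for bins in all 12. Lost bins were about as rare at gene ends, with 8.51% within 1 kb of one, 59.6% inside genes and a median distance of 16.7 kb. Outside genes, 13.2% of lost bins lay within 25 kb and 18.7% over 25 kb away. For bins in at least 4 libraries these shares were 13.1% and 17.2%. Bins present in few libraries lay further from gene ends in general, and the median for bins in at least 1 library was 16.8 kb. The bins just outside the rule had a median of 17.5 kb against 18.5 kb just inside it.

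Many gained bins adjoined chromatin that was acetylated with the vehicle already, and others stood apart from it. Of the 983, 425 (43.2%) adjoined a bin held by at least 3 DMSO libraries, 149 had one 2 to 4 bins away, 73 had one 5 to 10 bins away, and 336 (34.2%) had none within 10 bins. Among the 73 bins of full separation, 20 adjoined such chromatin and 38 (52.1%) had none within 10 bins. The share with none within 10 bins was 28.8% at a difference of 4, 49.2% at 5 and 52.1% at 6. For lost bins, set against Dex libraries in the same way, 34.3% adjoined and 47.0% had none within 10 bins.

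**Figure D3:**
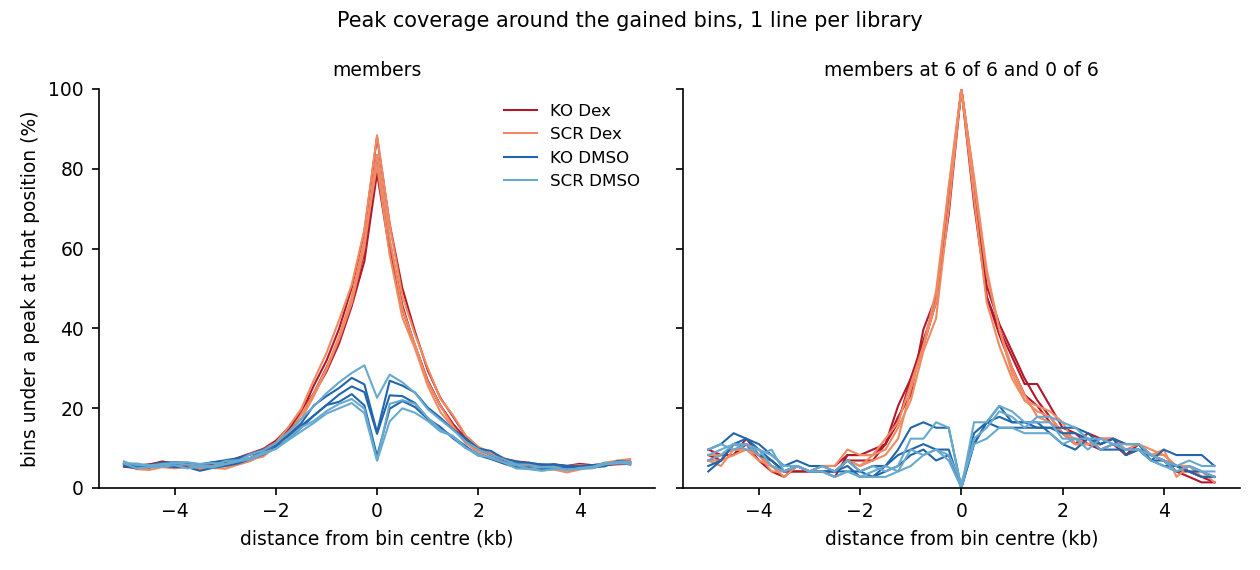
Percent of gained bins under a peak at each distance from the bin centre, 1 line per library, for all 983 bins on the left and for the 73 bins of full separation on the right. Dex lines reach their height at the centre and fall within about 2 kb to the level of the DMSO lines, which on the left are highest beside the centre.

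At 1 kb to the right of the bin centre, 26.8% to 29.5% of gained bins were under a peak in KO Dex libraries and 25.6% to 30.1% in SCR Dex libraries, and 17.3% to 20.1% in KO DMSO and 16.8% to 19.7% in SCR DMSO libraries. At 5 kb the 4 groups spanned 5.29% to 7.22% together. The rule chose the central bin by these same peaks, so an excess of the Dex libraries there was built in. Nothing is read from its width. The genotypes overlapped within each treatment at 1 kb.

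Peaks at gained bins were wide and of ordinary height. The authors' fold enrichment, which the deposited lists give for each peak, had medians of 3.27 to 3.46 at gained bins across the 6 Dex libraries, and of 3.33 to 3.75 over all peaks of the same libraries. Median width of the peaks that held gained bins was 1292 to 1495 bp, compared with 988 to 1031 bp for all peaks, a measure that favours wide peaks because they hold more bins. In each of the 6 Dex libraries, more than 50% of all peaks stood above the median fold of its gained bins, from 51.7% to 59.1%. Gained bins that adjoined vehicle chromatin had a median fold of 3.69 and those with none within 10 bins 3.25.

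The 983 bins formed 794 runs of adjoining bins. A run of 1 bin was the rule, in 672 cases (84.6%), and 53 runs held at least 3 bins. Lost bins formed 1363 runs with 84.4% of 1 bin, and their longest run had 4 bins, against 6 among the gained. Chromosome 22 held 11.8 gained bins per 1000 bins present in at least 4 libraries, chromosome 1 held 11.1 and chromosome 2 held 10.1, and chromosome 19 held the fewest at 3.18. Gained bins thus came from every chromosome examined, at unequal rates. Copy number of these aneuploid cells was not examined.

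The longest run lay inside SMAP2, which encodes a GTPase-activating protein of Arf vesicle traffic (chr1:40389501-40392500, 6 bins). Peaks covered 2787, 2788 and 2854 bp of it in KO Dex libraries and 2761, 863 and 566 bp in SCR Dex libraries, and 0, 60 and 0 bp in KO DMSO and 0 bp in all 3 SCR DMSO libraries. Every Dex library stood above every DMSO library, which the choice of these bins favours, and 2 SCR Dex libraries held only part of the run. The 5 bins inside ANKRD28, which encodes a subunit of protein phosphatase 6 (chr3:15794501-15797000), all showed full separation. The 2500 bp were covered completely in all 3 KO Dex and all 3 SCR Dex libraries, and 11, 0 and 0 bp in KO DMSO and 26, 0 and 11 bp in SCR DMSO libraries. It was the most complete of the long runs in both genotypes. The DMSO peaks that reached into it had a fold enrichment of 3.56 to 4.03, and the Dex peaks 3.09 to 3.27. The run beside PER1, a core repressor of the circadian clock, lay 2097 bp from the gene (chr17:8154501-8156000, 3 bins) and was covered over 1500 bp in all 6 Dex libraries. In DMSO it was covered over 42, 217 and 27 bp in KO and 0, 0 and 42 bp in SCR libraries. All 3 bins showed full separation, which fixes in advance that the treatments do not overlap. The DMSO peaks that reached into this run had a fold enrichment of 3.09 to 3.44, and the Dex peaks 2.57 to 2.85.

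The other 9 of the 12 longest runs held 4 bins each and were less even. Those inside CROCC, the gene of the ciliary rootlet protein, and TRIO, a guanine nucleotide exchange factor, and the one nearest to CABS1 were covered over at least 1741 bp in all 6 Dex libraries, and over at least 1631 bp in 1 KO DMSO and 1 SCR DMSO library. The run nearest to PRPS1, which encodes a nucleotide synthesis enzyme (chrX:107677501-107679500), behaved likewise, with 1704, 1796 and 1789 bp in KO Dex and 1927, 1999 and 1961 bp in SCR Dex libraries, and 1662, 75 and 0 bp in KO DMSO and 75, 0 and 1848 bp in SCR DMSO libraries. It lies between PRPS1 and the gained bins of TSC22D3. The run near RAB4A, an endosomal recycling GTPase, was covered over 75, 2000 and 379 bp in KO Dex and 2000 bp in each SCR Dex library, and over at most 275 bp in any KO DMSO or SCR DMSO library. Runs near or inside IFNLR1, a chain of the interferon lambda receptor, SEMA3A, a secreted guidance protein, and NOPCHAP1, a chaperone of ribonucleoprotein assembly, were covered over 2000 bp in 5 of the 6 Dex libraries. The sixth had 302 bp at IFNLR1 (KO Dex library 3), 248 bp at SEMA3A (SCR Dex library 3) and 351 bp at NOPCHAP1 (KO Dex library 1). All 3 runs were also covered over 2000 bp in KO DMSO library 3, and over at most 451 bp in any other DMSO library. The run inside KCNT1, a potassium channel gene, had 428, 1754 and 2000 bp in KO Dex and 2000, 1581 and 0 bp in SCR Dex libraries, and 0 bp in each KO DMSO and 108, 56 and 151 bp in the SCR DMSO libraries.

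**Figure D4:**
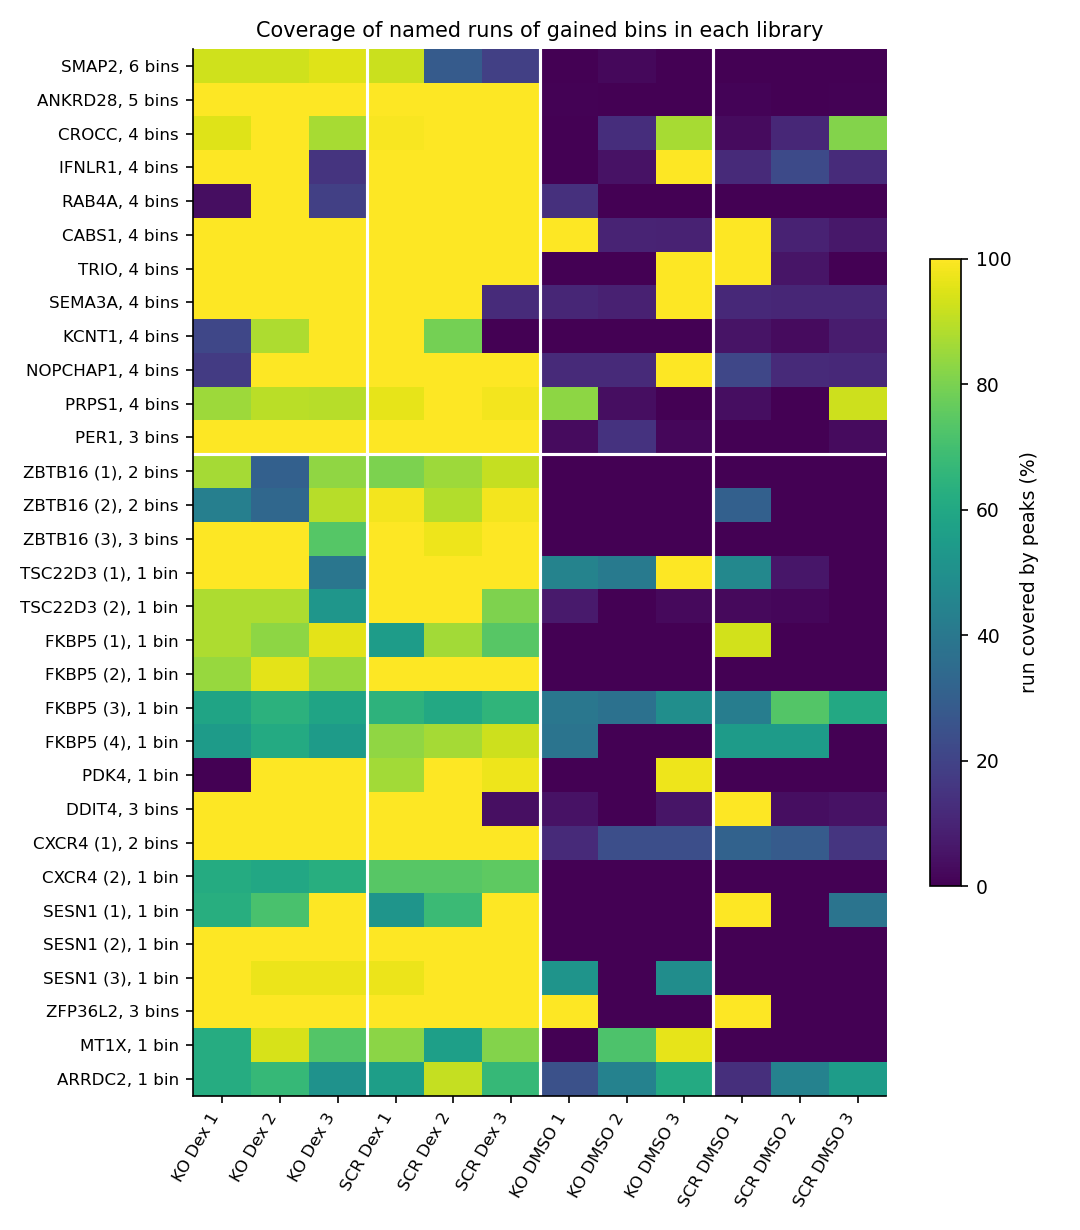
Percent of each run covered by peaks in each library, with KO Dex, SCR Dex, KO DMSO and SCR DMSO libraries from left to right. The 12 longest runs are above the horizontal white line and the other runs near glucocorticoid-induced genes below it, numbered by position where a gene has several. ANKRD28, PER1, CXCR4 (1) and SESN1 (2) are fully covered in all 6 Dex libraries and over at most 313 bp of their length in any DMSO library.

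By gene, PHACTR3, a gene of a protein that binds protein phosphatase 1 and actin, had the most gained bins within 25 kb, 9, although 0 of them reached full separation. SMAP2 followed with 8, and ZBTB16 with 7, of which 4 showed full separation and 0 lost bins stood beside them. KIF3C, a kinesin motor gene, and NOPCHAP1 had 6, ANKRD28 and SEMA3A had 5. The keratin genes KRT81, KRT7 and KRT86 shared the same 6 bins on chromosome 12, because their windows overlap, and each of these bins was in all 6 Dex libraries. CEBPB and NR3C1, the gene of the glucocorticoid receptor, had 0 gained bins within 25 kb, though they had 10 and 14 bins in at least 4 libraries.

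Gained bins lay near many known glucocorticoid-induced genes. One lay within 25 kb of 12 of the 56 list genes (21.4%), compared with 911 of 19970 protein-coding genes (4.56%). Among genes with any bin in at least 4 libraries within 25 kb, the shares were 12 of 51 (23.5%) and 911 of 16530 (5.51%). Full separation was seen near 6 list genes (10.7%) and near 62 of all genes (0.31%). Lost bins, by contrast, lay near 6 of the 56 (10.7%) and near 1781 of all genes (8.92%). The list's median gene length was 17.7 kb and that of all genes 24.2 kb. No test was made of these shares, because earlier results of the same libraries were known when the list was drawn up.

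ZBTB16, which encodes the zinc finger factor PLZF, had 3 runs within the gene. The longest (chr11:114179001-114180500) was covered over 1500, 1500 and 1104 bp in KO Dex and 1500, 1461 and 1500 bp in SCR Dex libraries and is listed at 0 in all 6 DMSO libraries. The 2 others (chr11:114080001-114081000 and chr11:114159501-114160500) were covered in all Dex libraries over 307 to 982 bp of 1000, and in DMSO the only coverage was 307 bp of the run at 114159501 in SCR library 1. PER1, described above, is a clock gene and a glucocorticoid target at the same time. TSC22D3, which encodes the anti-inflammatory protein GILZ, had a bin of full separation 1221 bp from the gene (chrX:107711501-107712000), covered over 439, 439 and 262 bp in KO Dex and 500, 500 and 404 bp in SCR Dex libraries. DMSO libraries reached at most 36 bp there, in KO library 1. The DMSO peaks that reached into this bin had a fold enrichment of 4.37 to 5.49, and the Dex peaks 3.24 to 4.75. A peak thus stood beside the bin with the vehicle already.

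FKBP5, a co-chaperone that restrains the receptor, had 4 gained bins. The bin within the gene at chr6:35602001-35602500 showed full separation, with 423, 480 and 423 bp in KO Dex and 500 bp in each SCR Dex library, and is listed at 0 in all 6 DMSO libraries. The SCR Dex values lay above the KO Dex values at this bin, the reverse of the order in the SMAP2 run, and nothing is read from either. Of its promoter shown above, the bin at chr6:35689001-35689500 was covered over 292 to 327 bp in all 6 Dex libraries and 186 to 367 bp in all 6 DMSO libraries. There Dex and DMSO values overlapped and fell on both sides of the 250 bp limit. The same was seen at ARRDC2, an arrestin family gene, where Dex libraries had 255 to 457 bp and DMSO libraries 68 to 306 bp.

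CXCR4, the chemokine receptor that holds plasma cells in the bone marrow, had a gained run at its promoter, beside a peak that was there with the vehicle already. The run chr2:136118001-136119000, which contains the whole promoter window printed above, was covered over 1000 bp in all 3 KO Dex and all 3 SCR Dex libraries, and over 121, 242 and 242 bp in KO DMSO and 313, 289 and 153 bp in SCR DMSO libraries. The promoter bin itself was present in 2 of the 3 SCR DMSO libraries, and the bin next to it in no DMSO library. In all 12 libraries a single peak reached into the run, and the authors' fold enrichment of that peak was 3.49 to 4.01 in KO Dex and 3.33 to 3.48 in SCR Dex libraries, and 4.61 to 5.21 in KO DMSO and 4.53 to 4.92 in SCR DMSO libraries. A further bin (chr2:136132501-136133000) had 308, 300 and 313 bp in KO Dex and at least 370 bp in each SCR Dex library and is listed at 0 in all DMSO libraries. Covered length did not overlap between the treatments at either place, which full separation fixes in advance for the second bin. At that bin the SCR Dex values also lay above the KO Dex values. In the runs inside SMAP2 and nearest to ETV3 the KO Dex values lay above the SCR Dex values, and nothing is read from either order.

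SESN1 encodes a sestrin that inhibits mTORC1, and its bin at chr6:109023001-109023500 was covered over all 500 bp in every Dex library and is listed at 0 in every DMSO library. Its 2 other bins were in all 6 Dex libraries and in 1 DMSO library each. DDIT4, another inhibitor of mTORC1, had a run of 3 bins covered over 1500 bp in all 3 KO Dex libraries and in 2 of 3 SCR Dex libraries, where library 3 had 61 bp. In DMSO that run reached 84 bp in KO libraries at most and 1500 bp in SCR library 1. SESN2, the paralogue of SESN1, which is on none of the lists and was picked after its values were seen, also held a bin of full separation.

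The remaining genes of the list were less complete. ZFP36L2, an mRNA decay factor, had a run of 1500 bp covered in all 6 Dex libraries and in 1 KO DMSO and 1 SCR DMSO library. PDK4, a kinase that restrains pyruvate oxidation, had a bin with 0, 500 and 500 bp in KO Dex and 431, 500 and 488 bp in SCR Dex libraries, and 488 bp in 1 KO DMSO library. MT1X and MT1M, metallothionein genes, shared 1 bin, present in all 6 Dex libraries and in 2 KO DMSO libraries. The other genes of the list had no gained bin within 25 kb, among them DUSP1, KLF9, SGK1 and BCL2L11, known targets picked here by name and not by value.

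**Figure D5:**
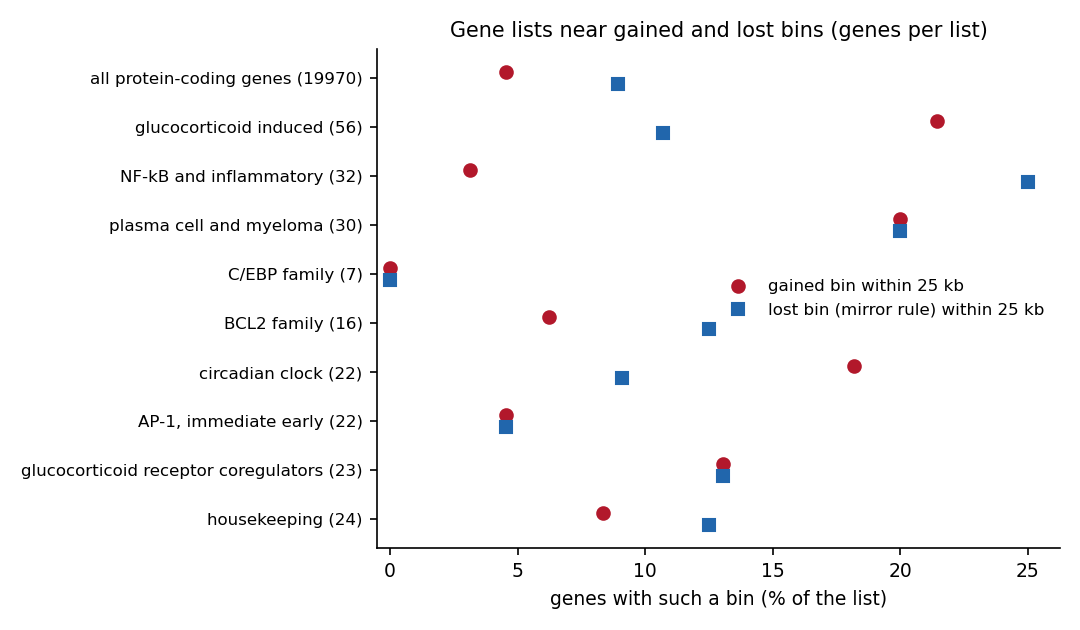
Percent of the protein-coding genes of each list with a gained bin (circles) or a lost bin (squares) within 25 kb of the gene, with the number of genes in brackets. Glucocorticoid-induced genes stand at 21.4% for gained and 10.7% for lost bins, NF-kB and inflammatory genes at 3.12% and 25%, and all genes at 4.56% and 8.92%.

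For the other lists, too, gained and lost bins are given by their counts, with no test between lists. NF-κB and inflammatory genes had a gained bin near 1 of 32 (3.12%) and a lost bin near 8 (25%). The 1 gene was REL, which encodes the NF-κB subunit c-Rel, where a run at chr2:60861501-60862500 was covered over 914, 851 and 737 bp in KO Dex and 745, 829 and 798 bp in SCR Dex libraries and is listed at 0 in all 6 DMSO libraries. Plasma cell and myeloma genes had gained and lost bins near 6 of 30 each (20%). Genes of this list had a median of 19 bins in at least 4 libraries within 25 kb, compared with 7 for all genes, and the part of this in the share was not tested. The 6 with gained bins were FKBP11, IKZF1, MAF, CCND3, FCRL5 and TNFRSF13B, each with 1 bin below full separation. Clock genes had gained bins near 4 of 22 (18.2%) and lost bins near 2 (9.09%). They included PER1, which encodes a repressor of the clock, and the casein kinase genes CSNK1D and CSNK1E. Clock genes had a median of 12 bins in at least 4 libraries within 25 kb, and the part of this in the share was not tested.

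Receptor coregulators and chaperones had gained bins near 3 of 23 genes (13.04%), namely NCOA3, FKBP4 and FKBP5, and lost bins near 3. The median for this list was 17 bins in at least 4 libraries within 25 kb and a gene length of 97.0 kb, and the part of these in the share was not tested. AP-1 and immediate early genes had 1 of 22, ATF3 (4.55%), and the C/EBP family had 0 of 7. In the BCL2 family, 1 of 16 had a gained bin, BIK, a pro-apoptotic BH3-only gene, where the bin was covered over 324, 500 and 409 bp in KO Dex and 397, 0 and 0 bp in SCR Dex libraries and is listed at 0 in all DMSO libraries. Housekeeping genes had 2 of 24 (8.33%), VCP and SNRPD3. Marker genes of T cells and mature B cells had 0 of 10 each and those of plasma cells 0 of 8, and S100A9 of the myeloid and PECAM1 of the stromal or epithelial markers had 1 bin each. With the all-gene share at 4.56%, the counts of 0 to 3 in the smaller lists are too low to set any of them apart.

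Genotype differences in the length covered by H3K27ac peaks around the gained bins were tested on tiles of 5 kb. The 983 bins lay in 816 tiles, and all of these were among the 74694 tiles tested, which the rule made certain because a gained bin is covered in at least 4 libraries. Values were log2(covered bp + 500), so a fold on this scale understates changes of thinly covered tiles. Over both treatments 37 of the 816 tiles (4.53%) differed between KO and SCR, 14 higher and 23 lower in KO (limma, adjusted p under 0.05 over all tiles), against a background of 12.4% of all tiles, 6.16% higher and 6.21% lower. Under Dex 24 tiles differed, 2 higher and 22 lower in KO (background 7.81%, 3.77% higher and 4.04% lower), and under DMSO 19 differed, 8 higher and 11 lower (background 6.81%, 3.08% higher and 3.73% lower). Every gained bin was in at least 4 of the 6 Dex libraries, and so in at least 1 Dex library of each genotype, which limits how far the genotypes can differ at it, and nothing is read from these shares. For the drug itself, which the rule used, 0.497% of all tiles were called, 0.363% higher with Dex, and 797 of the 816 tiles were covered more with Dex. Median log2 differences of KO minus SCR over the 816 tiles were 0.01 over both treatments, -0.01 under Dex and 0 under DMSO, and over all tiles 0.01, 0 and 0.

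The split of called tiles under Dex changed with the libraries used. Without SCR Dex library 1, 17 tiles were higher and 14 lower in KO. Without SCR Dex library 2 there were 9 higher and 14 lower tiles, and without KO DMSO library 2 there were 14 calls, all lower. Of the 24 called tiles, 15 held a gained bin present in 1 KO Dex and 3 SCR Dex libraries, and 3 held one present in 3 KO Dex and 1 SCR Dex library. These same peaks chose the bins, so nothing is read from the split. With equal covered length the split was 14 higher and 40 lower, and with only the peaks of −log10 q of at least 2 it was 12 higher and 58 lower.

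Tiles higher in KO over both treatments included 5 that the rule for naming took by smallest adjusted p. The tile in NR6A1, the gene of an orphan nuclear receptor (chr9:124730001-124735000), was covered over 1109, 1202 and 1109 bp in KO Dex and 1042, 999 and 978 bp in SCR Dex libraries, and 656, 1202 and 1042 bp in KO DMSO and 0 bp in all SCR DMSO libraries. Only SCR cells lacked coverage with the vehicle (log2 difference KO minus SCR 0.79 ± 0.10 SE, limma adjusted p = 0.000374). In the tile at TNFSF8, which encodes the CD30 ligand (chr9:114925001-114930000), KO Dex libraries had 1142, 1307 and 1308 bp and SCR Dex libraries 783, 460 and 901 bp, and KO DMSO libraries had 568, 986 and 1313 bp and SCR DMSO libraries 0 bp. KO was above SCR in both treatments without overlap (log2 0.99 ± 0.13 SE, limma adjusted p = 0.000543). The tiles nearest to CDH26, a cadherin gene, TDRKH, a gene of the piRNA pathway, and GABRP, a subunit gene of the GABA-A receptor, had log2 differences of 0.86, 1.16 and 0.99 (limma adjusted p = 0.000709, 0.00512 and 0.0116).

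Tiles lower in KO were led by IRX2, a homeobox gene (chr5:2760001-2765000). There peaks covered 2018, 1918 and 1822 bp in KO Dex and 3281, 3281 and 3266 bp in SCR Dex libraries, and 2075, 1954 and 1998 bp in KO DMSO and 2004, 1932 and 2140 bp in SCR DMSO libraries. SCR Dex stood apart and the other 3 groups overlapped (log2 difference KO minus SCR -0.34 ± 0.03 SE, limma adjusted p = 7.42e-05). The tile in SNX9, a sorting nexin gene (chr6:157840001-157845000), had 461, 405 and 456 bp in KO Dex and 1755, 1723 and 1718 bp in SCR Dex libraries, and 360, 363 and 357 bp in KO DMSO and 891, 1718 and 1718 bp in SCR DMSO libraries. KO was below SCR in both treatments (log2 -1.22 ± 0.15 SE, limma adjusted p = 0.000294). The tiles in EIF4G1, a scaffold gene of translation initiation, and nearest to MPPED1 and FAM107B had log2 differences of -0.29, -0.92 and -0.70 (limma adjusted p = 0.0027, 0.00305 and 0.0045).

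The drug response of a tile, Dex minus DMSO, differed between KO and SCR in 3 of the 816 tiles (0.368%). The background was 0.205% of all tiles (153, with 0.091% higher and 0.114% lower). All 3 had the smaller response in KO. Of them, 2 held a gained bin present in 1 KO Dex and 3 SCR Dex libraries. The peaks that chose those bins also enter the test, so nothing is read from the shared direction. The 3 tiles were those at IRX2, NR6A1 and CHST15, a sulfotransferase gene of chondroitin sulphate. In the CHST15 tile (chr10:124210001-124215000) KO Dex libraries had 856, 1213 and 900 bp and SCR Dex libraries 2311, 2346 and 2044 bp, and KO DMSO libraries had 1062, 712 and 766 bp and SCR DMSO libraries 845, 640 and 689 bp. At IRX2 and CHST15 only SCR cells stood higher with Dex, whereas at NR6A1 KO cells were covered with the vehicle already. The differences of the responses were log2 -0.63 at IRX2 (limma adjusted p = 0.00904), -1.41 at NR6A1 (0.0331) and -1.01 at CHST15 (0.0497). The NR6A1 and CHST15 calls were each lost without any 1 of 10 of the 12 libraries and with no filter on tiles (limma adjusted p = 0.0948 and 0.125), and that at CHST15 also with coverage in at least 6 libraries (0.0758). The IRX2 call was lost with scaling to total covered length (limma adjusted p = 0.0616). Called tiles numbered 1 without SCR Dex library 2 or 3 or SCR DMSO library 1, and 5 without KO Dex library 2 or KO DMSO library 3.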

How the data were processed

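H3K27ac CUT&RUN of RPMI 8226 cells gave 12 lists of broad peaks, 1 per library. Per the submitters' processing notes, hg38, Bowtie2 2.4.2 and MACS3 3.0 were used, and a control library for peak calling is not given in the sources used here. The deposited peak starts and ends are genome positions (unit: other). The deposited score of a peak is an integer derived from its q-value. The deposited signal is a ratio, the fold enrichment of the peak. The deposited −log10 p and −log10 q columns hold p-values and q-values on that scale. The authors gave no read counts, so depth is unknown and no counting interval is given.

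Bins, runs and gene windows were computed with pandas 2.3.3, NumPy 2.4.6 and SciPy 1.17.1 under Python 3.11.15, and drawn with Matplotlib 3.10.9. Gene spans came from the RefSeq gene table (GRCh38.p14), which has no strand, and all 280 entries of the gene lists matched it. The gained bins and the lists were chosen with earlier results of these data known. Tiles of 5 kb with peaks in at least 3 libraries were tested on log2(covered bp + 500), quantile-normalised, with limma 3.58.1 (trend and robust) in R 4.3.3, adjusted by Benjamini-Hochberg over all 74694 tiles with a threshold of 0.05. On simulated data for the average genotype contrast over 74694 tiles, the test recovered 26.5% of changes of log2 1 and 77% of log2 2, with 11 false calls. The simulation used normal noise of equal spread for every tile, unlike the real tiles, so these rates may not carry over to them. An exact permutation test of the KO minus SCR share of gained bins had been planned (two-sided p = 0.845), but it runs on the presence values that chose the bins and nothing is drawn from it. Named were the 12 longest runs, the 10 genes with most gained bins, all glucocorticoid-induced list genes with one, up to 5 called tiles per direction by adjusted p for the average genotype contrast and the difference of drug responses, and CEBPB and NR3C1. Other settings were other thresholds, coverage limits, bin offsets, tile sizes, normalisations, peak filters, a replicate block and leaving out each library. Sequences of the bins themselves were not used here, since no genome was at hand. A listed gene that is counted but not named is not reported here.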

Additional observations from a re-analysis of the deposited data

Results flagged for a closer look

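The drug responses of KO and SCR cells differed by a direct test, the interaction term of limma over all 74694 tiles, in 3 tiles that hold gained bins. In 2 of them a gained bin was present in 1 KO Dex and 3 SCR Dex libraries. The peaks that chose those bins also enter the test, so nothing is read from the shared direction. The difference of the responses, KO minus SCR, was log2 -0.63 in the tile at IRX2 (adjusted p = 0.00904). It was -1.41 in the tile at NR6A1 (adjusted p = 0.0331) and -1.01 in the tile at CHST15 (adjusted p = 0.0497). The IRX2 call held in 18 of 20 other settings, the NR6A1 call in 8 of 20 and the CHST15 call in 7 of 20, and the sign held in all 20 for each of the 3.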

How the results depend on the processing

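The number of gained and of lost bins followed the rule's limits. It was 4278 gained and 7836 lost at a difference of 3, 250 and 271 at 5, and 73 and 15 at 6. Lost bins also moved to 2542 with at least 1 bp covered, 962 with 500 bp covered, 595 with −log10 q of at least 2 and 782 at equal covered length. Without 1 library, gained bins numbered 355 to 1829 and lost bins 450 to 2814. Gained bins numbered 355 to 436 without any 1 Dex library and 1349 to 1829 without any 1 DMSO library, since fewer libraries of 1 treatment shift the difference by construction. The KO minus SCR difference in the share of gained bins present turned positive at a difference of 3 (2.12 points), with at least 1 bp or all 500 bp covered (0.149 and 0.636), with a limit between 250 and 500 bp (0.371), with bins starting at position 250 (0.263) and with −log10 q of at least 2 (1.18). It ranged from -3.96 to 5.68 points without 1 library, and the cause was not tested.

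Called tiles with gained bins numbered 28 to 45 over both treatments, 14 to 31 under Dex, 16 to 26 under DMSO and 1 to 5 for the difference of responses when 1 library was left out. Over both treatments they were 67 with tiles of 20 kb, 71 at equal covered length and 78 with −log10 q of at least 2. Under Dex they were 15 with an offset of 100 bp, 37 with tiles of 20 kb, 13 with no filter, 14 with coverage in at least 6 libraries, 54 at equal covered length and 70 with −log10 q of at least 2. Under DMSO they were 29 with the offset of 100 bp and 42 with tiles of 20 kb. For the difference of responses they were 5, 0 and 1 with that offset, 20 kb tiles and no filter, 15 at equal covered length and 29 with −log10 q of at least 2. Over both treatments without normalisation 21 were higher and 19 lower in KO, and under DMSO at equal covered length 19 were higher and 9 lower. The drug contrast over all tiles, which the rule used, gave 371 calls and 651, 132, 143, 185 and 627 with 2 kb tiles, 20 kb tiles, no filter, coverage in 6 libraries and equal covered length, and 187 to 382 without 1 library.

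The replicate numbers did not pair the libraries: deviations of same-numbered libraries correlated at -0.028 to 0.042 and those of others at -0.051 to 0.049, and 4 of 12 libraries correlated best with their own number. With the number as a replicate block, 26, 17, 18 and 0 tiles with gained bins were called for the 4 genotype contrasts in the order above, and 104 tiles for the drug. The calls for the difference of responses at IRX2, NR6A1 and CHST15 were then all lost (limma adjusted p = 0.0833, 0.149 and 0.180). Genes near a gained bin numbered 558 and 2176 with windows of 5 and 100 kb, and 3595, 200 and 62 at differences of 3, 5 and 6. Of the glucocorticoid-induced genes, these were 7 and 19, and 21, 6 and 6. Signs of all named tiles held in every setting run, and CDH26 (log2 0.70, −log10 q of at least 2) and GABRP (0.52, equal covered length) lost their call once each.

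The lists give no depth, and a bin without a peak was counted as empty whatever signal it held. Coverage is a yes or no measure, and gained bins beside a peak edge, such as that at the FKBP5 promoter, enter or leave the set with a small shift of the edge.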

Other observations

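Bins of full separation also lay far from protein-coding genes or near genes on no list, named here after their values were seen. The run nearest to IGSF21 (chr1:18041001-18042500) was covered over 1297, 1431 and 1113 bp in KO Dex and 1335, 1444 and 1364 bp in SCR Dex libraries and is listed at 0 in all 6 DMSO libraries. The run nearest to ETV3, which encodes an ETS family repressor (chr1:157284001-157285000), had 856, 919 and 861 bp in KO Dex and 819, 818 and 706 bp in SCR Dex libraries, and 0 in all DMSO libraries. The run near TRIM40, a tripartite motif gene (chr6:30130001-30131000), had 1000 bp in each KO Dex library and 828, 980 and 1000 bp in SCR Dex libraries, and 0 in all DMSO libraries. In all 3 runs every Dex library held most of the run and no DMSO library held any.

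Outside the 25 kb window of RGS1, the run chr1:192530501-192531500 lay 44773 bp from the gene. It was covered over 992, 900 and 796 bp in KO Dex and 832, 832 and 1000 bp in SCR Dex libraries, and over 192, 166 and 93 bp in KO DMSO and 192, 0 and 197 bp in SCR DMSO libraries. It accompanied the gained promoter bin of the same gene. The bin nearest to NNMT, which encodes nicotinamide N-methyltransferase (chr11:114341001-114341500), had 356, 500 and 500 bp in KO Dex and 500, 307 and 399 bp in SCR Dex libraries, and 0, 2 and 8 bp in KO DMSO and 0 bp in SCR DMSO libraries. It lies on the same chromosome arm as the 3 runs of ZBTB16. None of the 1562 RefSeq miRNA hairpins examined lay in a gained bin.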
